A study of Mus musculus with 28 samples.

Results

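The genes described here make, carry, break down or sense retinoic acid, the active derivative of vitamin A. They are Cyp26b1, Cyp26a1, Aldh1a1, Aldh1a2, Aldh1a3, Rara, Rarb, Rxra and Crabp1, 9 genes chosen by symbol because Cyp26b1 fell steeply after birth, so the change of Cyp26b1 with age is given below as a description, without a test. 8 of the 9 had a probe on the arrays, out of 18501 genes with a symbol, and all 8 passed the minimum number of arrays. Aldh1a1 had none and is not described further.

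RNA of whole cerebella was compared on 28 two-colour arrays at P0, P3, P7 and P10 (postnatal days 0 to 10). Every array paired a Ts1Cje mouse with a euploid mouse, both of the strain labelled B6EiC3SnF1/J A/a. Ts1Cje mice carry an extra copy of a distal segment of chromosome 16 and have lost a copy of a telomeric piece of chromosome 12. On 16 arrays both mice were of the same stage (4 arrays per stage), and on the other 12 they were of successive stages (4 arrays per step, the Ts1Cje mouse being the older on 2 of them). Each genotype gave 6 mice at P0, 8 at P3, 8 at P7 and 6 at P10. Array names give the Ts1Cje stage before the slash and the euploid stage after it, and values are log2 ratios of the pair. The mice of an array were always of opposite sex by the series record. Their sexes are not in the labels, so the part of sex in any ratio was not tested. In whole tissue, fewer cells of a type and less RNA per cell cannot be told apart.

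Retinoic acid is made from retinaldehyde by the Aldh1a dehydrogenases and is oxidised to inactive products by the cytochromes Cyp26a1 and Cyp26b1. Inside the cell it is bound by Crabp1. It acts through nuclear receptors, the retinoic acid receptors Rara and Rarb, which pair with a retinoid X receptor such as Rxra on DNA. In the developing hindbrain and cerebellum the meninges and the choroid plexus are known sources of retinoic acid, and Cyp26 enzymes limit where it acts. By the RefSeq annotation of GRCm38.p6 the 9 genes lie on chromosomes 2, 6, 7, 9, 11, 14 and 19, and none on chromosome 16 or 12, so both genotypes carry the same number of copies of each.

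A receptor dimer binds direct repeats of a 6-base motif. RefSeq promoter windows (GRCm38.p6, 250 bases before to 50 after a start site) were found for 8 of the 9 genes, all but Aldh1a3, in 13 windows. They were searched on both strands for 2 motifs in the same direction, each either AGGTCA or AGTTCA or, with another first base, GGGTCA or GGTTCA, with 1, 2 or 5 bases between them (AGGTCANNNNNAGTTCA, for instance). The repeat spaced by 5 was found in the windows of Rarb and Cyp26a1 and in 0.0974% of all 32851 windows (32 windows). The repeats spaced by 1 and by 2 were found in no window of these genes, against 0.222% and 0.268% of all windows. A match is a description of the letters only. The windows shown are those of the gene that fell and of the 2 genes with a repeat, each written from 5′ to 3′ on the gene's own strand with the repeat in capitals.
Cyp26b1, chr6:84593761-84594060, minus strand: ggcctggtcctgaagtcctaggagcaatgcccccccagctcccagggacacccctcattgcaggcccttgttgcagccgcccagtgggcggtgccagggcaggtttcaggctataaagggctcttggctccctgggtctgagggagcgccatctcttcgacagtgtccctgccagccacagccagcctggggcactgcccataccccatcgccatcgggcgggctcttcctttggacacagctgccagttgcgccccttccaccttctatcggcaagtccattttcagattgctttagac
Cyp26a1, chr19:37697558-37697857, plus strand: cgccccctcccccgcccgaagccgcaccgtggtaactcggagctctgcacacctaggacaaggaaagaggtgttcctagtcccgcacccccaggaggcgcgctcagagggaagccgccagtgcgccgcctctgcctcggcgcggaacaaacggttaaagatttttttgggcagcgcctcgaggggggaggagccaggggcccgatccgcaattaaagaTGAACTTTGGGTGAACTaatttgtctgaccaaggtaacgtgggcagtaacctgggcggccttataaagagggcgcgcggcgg
Rarb, chr14:16575427-16575726, minus strand: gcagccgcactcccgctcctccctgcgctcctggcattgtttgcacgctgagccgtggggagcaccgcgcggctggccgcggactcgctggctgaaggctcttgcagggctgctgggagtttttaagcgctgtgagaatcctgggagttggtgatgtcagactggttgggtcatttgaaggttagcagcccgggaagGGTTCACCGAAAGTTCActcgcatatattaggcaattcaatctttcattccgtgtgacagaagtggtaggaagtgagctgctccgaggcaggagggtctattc
In Rarb the repeat, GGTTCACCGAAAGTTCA, ended 37 bases before the start site and read along the gene. In Cyp26a1 it ended 16 bases before the start site and lay on the opposite strand, where it reads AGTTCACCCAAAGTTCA. Both start sites are those of the windows, not the outer ends of the genes. The annotated genes span 37697738 to 37701536 (Cyp26a1) and 16430839 to 17082331 (Rarb), so both repeats lie inside them. The Cyp26b1 window held none of the 3 repeats, which says only that these letters are not in this window.

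Cyp26b1, the enzyme that clears retinoic acid in much of the embryonic hindbrain, was lower in the older mouse on all 10 cross-stage arrays that measured it. From P0 to P3 the older minus younger values were -0.80 and -0.07 on the P0/P3 arrays and -0.47 and -0.18 on the P3/P0 arrays. From P3 to P7 they were -1.66 and -1.67 on the P3/P7 arrays and -3.04 and -2.16 on the P7/P3 arrays. From P7 to P10 they were -1.60 and -1.15 on the P7/P10 arrays, and neither P10/P7 array had a value. The values of the step from P0 to P3 did not overlap those of the later steps. Cyp26b1 was chosen for its fall in these values, and the share of all features with such a separation was not counted. From P3 to P7 both arrays with an older Ts1Cje mouse lay below both with an older euploid mouse. From P0 to P3 the arrays with an older Ts1Cje mouse lay between those with an older euploid mouse, so the order differed between the steps.

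In the fit over all arrays, Cyp26b1 changed by -0.38 ± 0.24 (SE) from P0 to P3, by -2.13 ± 0.24 from P3 to P7 and by -1.67 ± 0.38 from P7 to P10 on the log2 scale (26 arrays). The sum from P0 to P10 was -4.18 ± 0.51, which leaves 0.055 of the P0 level (95% interval 0.0263 to 0.115). Of the 22225 genes and unnamed probes tested, 55 had a lower estimate. The estimate was -4.00 ± 0.51 in euploid and -4.37 ± 0.57 in Ts1Cje mice. Their difference, -0.37 ± 0.33 (95% interval -1.05 to 0.31), did not pass limma's test (adjusted p = 1). It is the Ts1Cje effect at P10 minus that at P0 (-0.23 ± 0.22). The effect at P10 was -0.59 ± 0.24, and -0.25 ± 0.25 without P10/P10 replicate 1. The means of the cross-stage arrays were -1.25 over the 3 arrays with the title prefix ASJ and -1.29 over the 7 with the prefix ATJ. Cyp26b1 had a value on 8 of 8 arrays with a P0 mouse, 12 of 12 with a P3 mouse, 10 of 12 with a P7 mouse and 6 of 8 with a P10 mouse. These are 100%, 100%, 83.3% and 75%. Over all genes and unnamed probes the shares with a value were 86.2%, 87.7%, 84.8% and 78.9% on the same arrays. The authors left out spots near the background, and whether that removed the missing values was not tested.

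**Figure D1:**
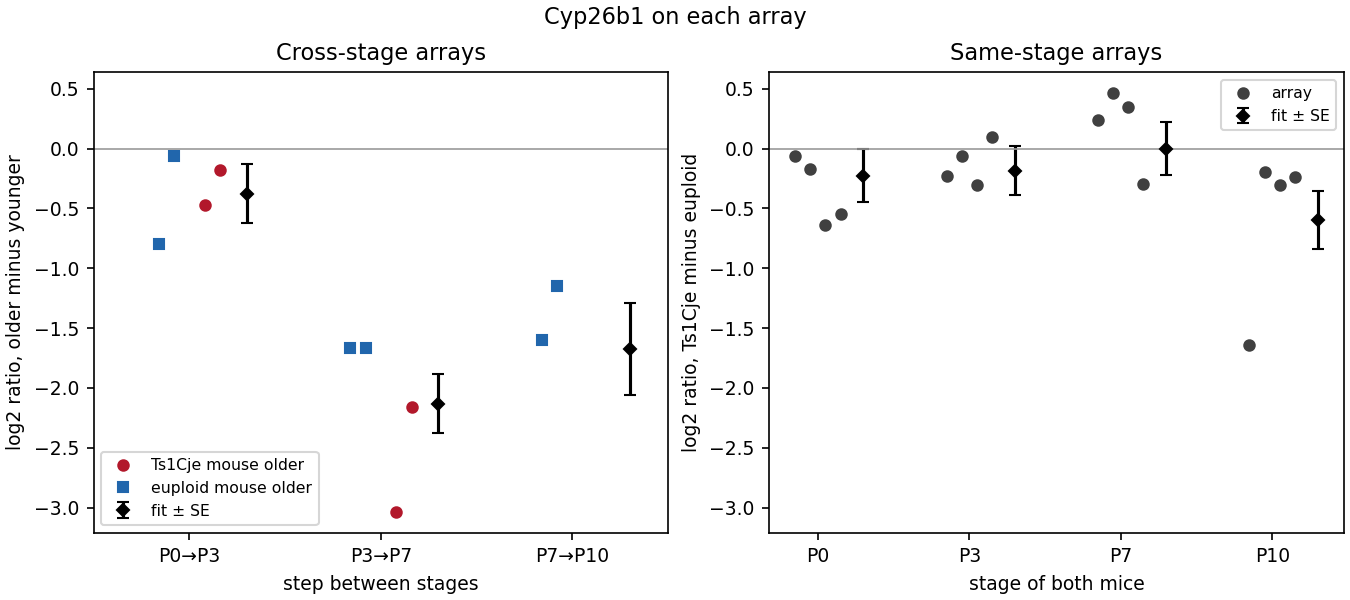
Cyp26b1 on each array. Left, log2 ratio of the older minus the younger mouse on the cross-stage arrays by step, by which genotype was older; right, log2 ratio of Ts1Cje minus euploid on the 4 same-stage arrays of each stage. Diamonds are the fitted values with their SE. All 10 cross-stage values lie below 0, and 1 P10/P10 array lies at -1.64 below the other same-stage values.

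Cyp26a1, the other clearing enzyme measured, had 11 cross-stage values with a wider spread. Its older minus younger values were 0.64, -0.59, 0.34 and 0.55 from P0 to P3. From P3 to P7 they were -0.49, 0.23, 0.34 and -4.05, and from P7 to P10 they were 0.11, -0.37 and -1.57. Values on both sides of 0 were seen in every step, and 1 array, P7/P3 replicate 2, stood far below the others. The fitted change from P0 to P10 was -1.40 ± 0.90 (SE, 25 arrays) and did not pass limma's test (adjusted p = 0.725). Without P7/P3 replicate 2 it was -0.32. The same array gave the most extreme cross-stage value of Rarb and, after 1 P10/P7 array, of Rxra.

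Among the receptors, Rarb, whose own promoter holds the repeat shown above, was higher in the older mouse on 9 of 11 cross-stage arrays. Its values were 0.12, 0.15, 0.26 and -0.10 from P0 to P3, then 0.27, 0.11, 0.20 and 0.80 from P3 to P7, and -0.01, 0.06 and 0.06 from P7 to P10. All 4 values of the step from P3 to P7 were above 0. The 0.80 of P7/P3 replicate 2 lay above every value of the other steps, and the other 3 lay between 0.11 and 0.27, against -0.10 to 0.26 in the first step. The fitted step from P3 to P7 was 0.35 ± 0.15 (limma adjusted p = 0.309) and the change from P0 to P10 was 0.51 ± 0.27 (ratio 1.42, 95% interval 0.959 to 2.11, adjusted p = 0.661, 26 arrays). Its 2 probes gave 0.35 ± 0.34 and 0.67 ± 0.35 from P0 to P10, with a correlation of -0.01 between them over 26 arrays.

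Rara, the most widely expressed of the retinoic acid receptors, was also higher in the older mouse on 9 of 11 arrays. From P0 to P3 its values were 0.20, 0.33, 0.68 and 0.11, and from P3 to P7 they were 0.08, 0.28, 0.11 and 0.14, with none below 0. From P7 to P10 they were -0.16, 0.06 and -0.03. The fitted steps were 0.33 ± 0.15 from P0 to P3 (limma adjusted p = 0.645) and 0.15 ± 0.15 from P3 to P7 (adjusted p = 0.751). Over the whole time Rara changed by 0.44 ± 0.27 (adjusted p = 0.7, 27 arrays), and its 4 probes gave between 0.22 and 0.56. Correlations between pairs of these probes over the arrays ran from -0.07 to 0.48. Rara and Rarb were among the least variable features, with residual SDs of 0.192 and 0.197, below those of all but 0.747% and 0.891% of the features tested. Both are averages of several probes.

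Rxra, the common partner of these receptors, had a value on all 28 arrays and did not move in 1 direction. It was higher in the older mouse on the 4 arrays from P0 to P3, at 0.72, 0.43, 0.20 and 1.08. It was lower on the 4 arrays from P3 to P7, at -0.44, -0.02, -0.33 and -1.80, and on the 4 from P7 to P10, at -0.42, -1.16, -1.95 and -0.22. The values of the first step did not overlap those of the later steps, but the share of all features with such a separation was not counted. The fitted steps were 0.61 ± 0.31, -0.64 ± 0.31 and -0.94 ± 0.31, with adjusted p of 0.715, 0.383 and 0.315 (limma). From P0 to P10 the change was -0.98 ± 0.54 (ratio 0.509, 95% interval 0.236 to 1.1, adjusted p = 0.666), and its 2 probes gave -1.17 ± 0.64 and -0.99 ± 0.74. The correlation between these probes was 0.24 over 22 arrays. Left out in turn, no array ended or made a call, and the estimate ranged from -1.32 without P10/P7 replicate 2 to -0.65 without P7/P3 replicate 2.

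The synthesising enzymes gave no steady course. Aldh1a2, the main retinaldehyde dehydrogenase of the embryo and of the meninges, had 8 cross-stage values between -0.94 and 2.15, 4 of them above 0, and a fitted change from P0 to P10 of -0.08 ± 1.06 (limma adjusted p = 0.992, 21 arrays). It was -0.75 without P0/P3 replicate 1 and 0.60 without P0/P3 replicate 2. In euploid mice it was -0.69 ± 1.16 and in Ts1Cje mice 0.54 ± 1.07, and the difference between them, 1.23 ± 0.73, did not pass (adjusted p = 1). Aldh1a3 was higher in the older mouse on the 3 arrays of the step from P0 to P3 that measured it, at 1.06, 0.30 and 1.61, and lower on all 3 from P7 to P10, at -0.30, -3.58 and -0.25. Its residual SD of 2.07 was above that of 98.3% of the features tested, and its change of -1.09 ± 1.92 did not pass (adjusted p = 0.928, 20 arrays). It was -0.02 without P7/P10 replicate 2 and -1.85 without P3/P0 replicate 1. Beside these enzymes, the mean of the meningeal marker genes (21 of 21 listed were measured) was higher in the older mouse on 3 of 4 arrays from P0 to P3 (mean 0.52, range -0.04 to 1.07) and on 1 of 4 from P3 to P7 (mean -0.01). The choroid plexus markers (14 of 16 measured) gave means of 0.02 and -0.01 in these steps. From P7 to P10 the mean was 0.07 for the meningeal markers (range -0.17 to 0.22) and -0.14 for the choroid plexus markers (range -0.89 to 0.30). Their part in the values of the enzymes was not tested.

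Crabp1, which holds retinoic acid in the cytosol, had 8 cross-stage values from -4.19 to 2.60, 4 above 0. From P0 to P3 the values were -2.98 and -4.19 on the P0/P3 arrays and 2.60 on the P3/P0 array. Read by genotype rather than by age, all 3 were higher in the Ts1Cje mouse. Its fitted change from P0 to P10, -0.29 ± 1.67, left a 95% interval of the ratio from 0.0709 to 9.39 (limma adjusted p = 0.982, 21 arrays).

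From P0 to P10 none of the 7 members other than Cyp26b1 passed an adjusted p of 0.05 in limma's test over both genotypes, and none had an unadjusted p under it. Of all features tested 0.045% passed (10 of 22225, 6 of them lower), and 8.05% had an unadjusted p under 0.05. The design left a median SE of 0.75 for this contrast over all features. After adjustment none of the 7 passed in a single step either, against 0.036% of all features from P0 to P3, 1.26% from P3 to P7 and 0.0045% from P7 to P10. Limma's unadjusted p was under 0.05 for Rara from P0 to P3 (0.034) and Rarb from P3 to P7 (0.0299). The same held for Rxra from P3 to P7 (0.0489) and from P7 to P10 (0.00602). The share of all features at that level in single steps is not given here.

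**Figure D2:**
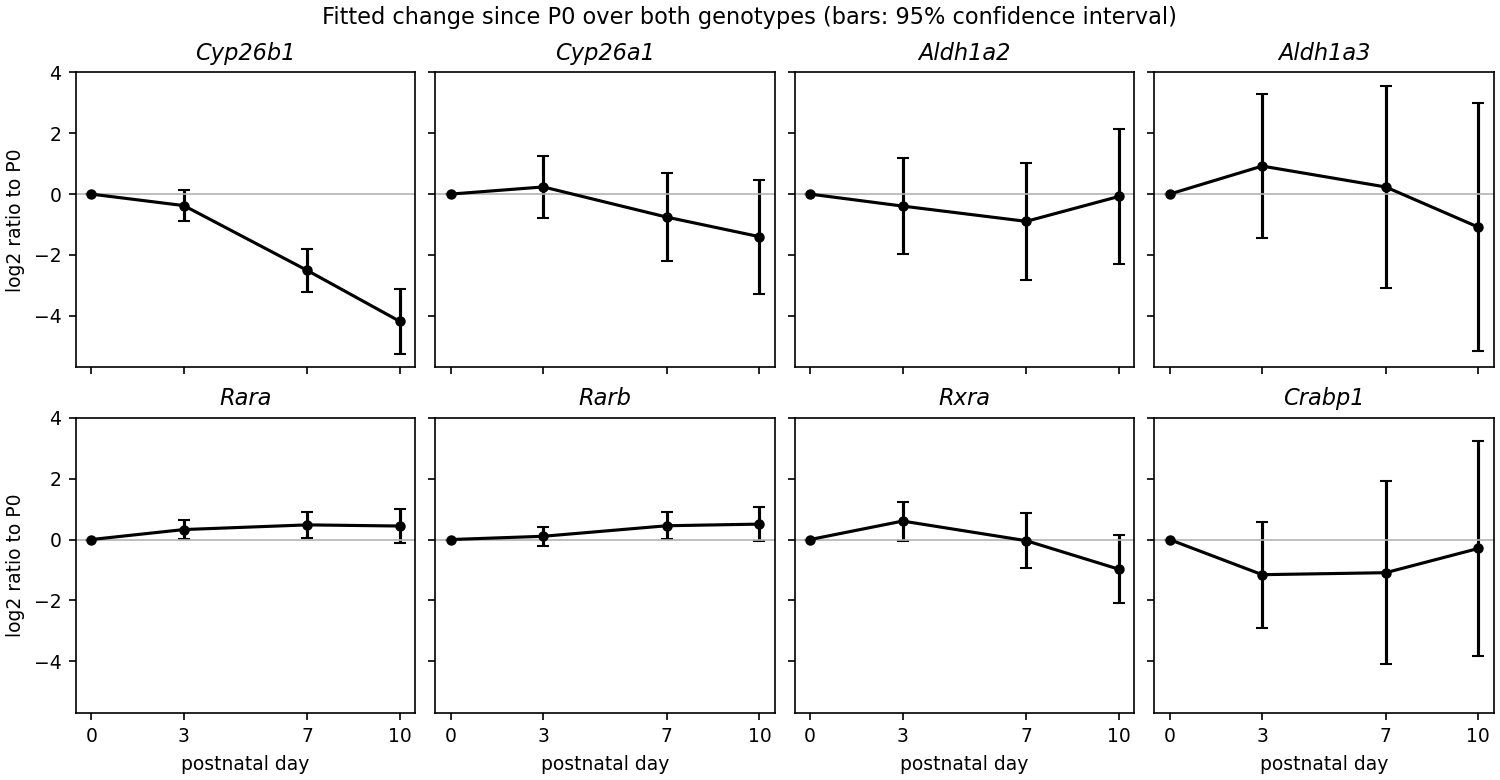
Fitted log2 ratio to P0 over both genotypes at P3, P7 and P10 for the 8 measured genes. Bars are 95% confidence intervals. Cyp26b1 ends at -4.18, Rara and Rarb end at 0.44 and 0.51 with narrow intervals, and the intervals of Aldh1a3 and Crabp1 span several log2 units.

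**Figure D3:**
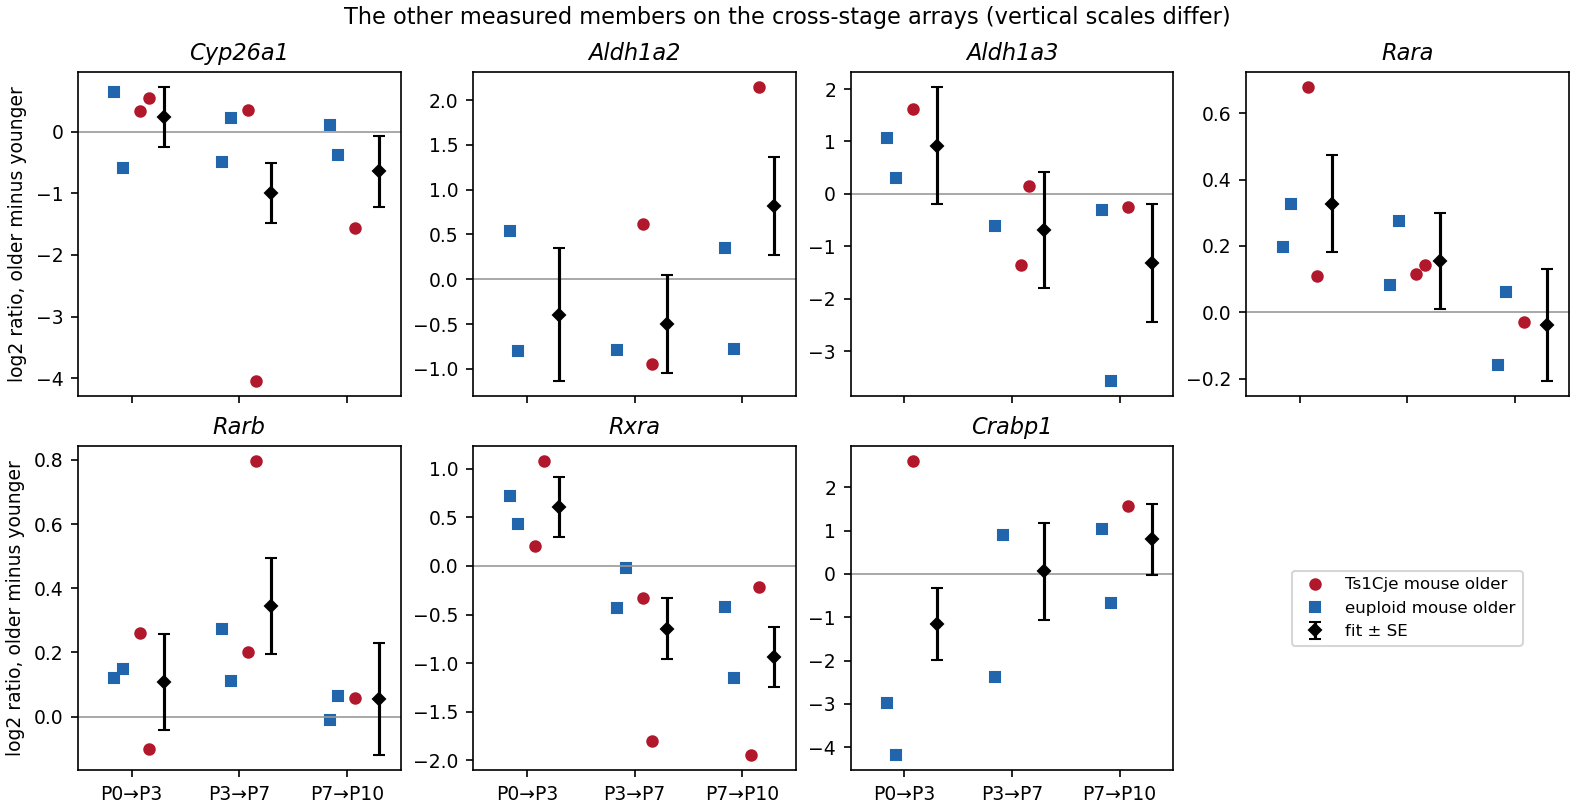
Older minus younger log2 ratio of the 7 other measured genes on each cross-stage array, by step and by which genotype was older, with the fitted step and its SE as diamonds; the vertical scales differ. Rxra is above 0 on all 4 arrays of the first step and below 0 on all 8 of the later steps, and 1 value of Cyp26a1 lies at -4.05.

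Ts1Cje and euploid mice were then compared at the same age. None of the 8 genes passed limma's test of the mean Ts1Cje effect over the 4 stages after adjustment, against 0.018% of all features (4 of 22225, all higher in Ts1Cje). 2 of the 8, Cyp26b1 and Crabp1, had an unadjusted p under 0.05, as had 4.08% of all features. The median effect over the 8 genes was -0.02 and that over all features was -0.00.

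Cyp26b1 was lower in Ts1Cje on 12 of 16 same-stage arrays. The values were -0.06, -0.18, -0.64 and -0.54 at P0, and -0.23, -0.07, -0.31 and 0.10 at P3. They were 0.24, 0.46, 0.34 and -0.30 at P7, and -1.64, -0.20, -0.30 and -0.24 at P10. All values at P0 and P10 were below 0, and 3 of 4 at P7 were above it. The mean effect was -0.25 ± 0.10 (ratio 0.84, 95% interval 0.724 to 0.974, limma adjusted p = 0.993), and the effect at P10 was -0.59 ± 0.24 (adjusted p = 0.942). P10/P10 replicate 1 decided much of both. Without it the mean effect was -0.16 ± 0.09 (limma adjusted p = 0.98) and the P10 effect was -0.25 ± 0.25 (adjusted p = 0.993), with unadjusted p above 0.05 for both. The difference between stages did not pass (adjusted p = 1). The array with P7 in one label and P3 in another for its euploid mouse was P7/P7 replicate 4, at -0.30. With that mouse taken as P3, the mean effect was -0.18 and the change from P0 to P10 was -3.71.

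Crabp1 had the largest estimate among the 8 genes, at 0.79 ± 0.33 (ratio 1.73, 95% interval 1.07 to 2.81, limma adjusted p = 0.993, 21 arrays). On the same-stage arrays its values were 1.22, -1.78, 0.79 and 0.19 at P0 and 0.49, -0.10 and 1.26 at P3. They were 0.72, -0.12 and -0.33 at P7 and 2.02, 0.16 and -0.10 at P10, so that 8 of 13 were above 0 and every stage held values on both sides of it. From the same-stage arrays alone the mean effect was 0.36 ± 0.27, and without P3/P0 replicate 1 it was 0.41. A dye term fitted for Crabp1 was -0.65 ± 0.28 (adjusted p = 0.157), and with it in the model the mean effect was 0.68 ± 0.30.

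The receptors differed little between the genotypes. The mean effect was -0.02 ± 0.06 for Rara (ratio 0.989, 95% interval 0.911 to 1.07, limma adjusted p = 0.994). It was 0.02 ± 0.06 for Rarb (ratio 1.02, 95% interval 0.931 to 1.11, adjusted p = 0.993). Rara lay between -0.67 and 0.26 on the 16 same-stage arrays, with a median of 0.00, and Rarb between -0.22 and 0.34 on 15 arrays, with a median of -0.00. Rxra gave -0.14 ± 0.12 (ratio 0.905, 95% interval 0.763 to 1.07, adjusted p = 0.993). Its same-stage values had a mean of 0.35 over the 6 arrays with the prefix ASJ and -0.45 over the 10 with the prefix ATJ, so its direction changed with the prefix. At P10 its values were 1.16, 0.08, -0.92 and -1.04, the first 2 with the prefix ASJ and Ts1Cje on Cy3, the last 2 with the prefix ATJ and Ts1Cje on Cy5, so dye and prefix cannot be told apart there. The dye term of Rxra was -0.26 ± 0.11 (adjusted p = 0.122).

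For the remaining enzymes the mean effects were -0.09 ± 0.20 for Cyp26a1, 0.23 ± 0.22 for Aldh1a2 and -0.02 ± 0.47 for Aldh1a3 (limma adjusted p of 0.993, 0.993 and 0.998). Cyp26a1 was between 0.28 and 0.43 on all 4 P10/P10 arrays and on both sides of 0 at the other stages, with a fitted effect at P10 of 0.16 ± 0.46 (adjusted p = 1). Aldh1a2 was above 0 on the 3 P7/P7 arrays that measured it, at 0.39, 0.96 and 0.45, with an effect at P7 of 0.77 ± 0.46 (adjusted p = 1). Aldh1a3 ranged from -2.97 to 3.60 over 11 same-stage arrays. For each of the 8 genes the test of a difference between stages gave an adjusted p of 1, and 0% of all features passed it (3.08% had an unadjusted p under 0.05).

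**Figure D4:**
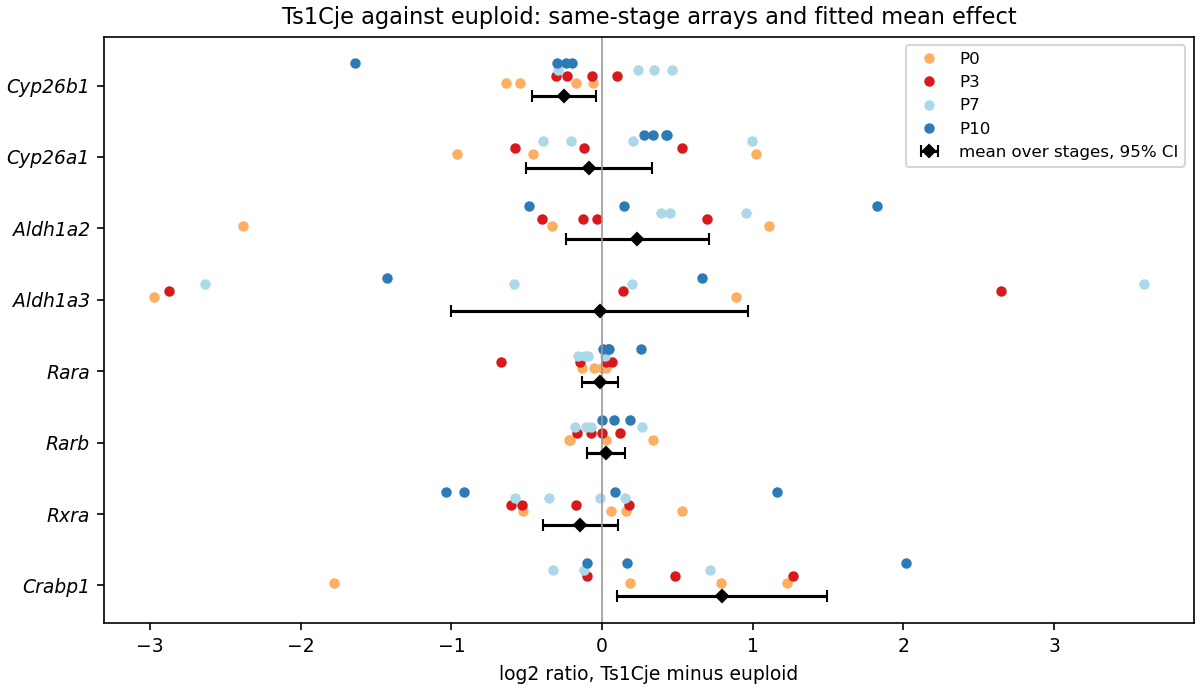
Log2 ratio of Ts1Cje minus euploid for the 8 measured genes. Points are same-stage arrays coloured by stage; diamonds with bars are the fitted mean effect over the 4 stages and its 95% confidence interval. The intervals of Rara and Rarb are the narrowest; those of Cyp26b1 and Crabp1 leave out 0 before adjustment.

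Other genes of the pathway were taken from 6 lists holding 95 genes, of which 82 were tested. None passed after adjustment in the mean Ts1Cje effect or in the change from P0 to P10. In the single steps 1 of the 82 passed, against 1.26% of all features from P3 to P7. It was Rdh16, a retinol dehydrogenase named here after its values were seen, which fell by 2.26 ± 0.48 on the log2 scale from P3 to P7 (limma adjusted p = 0.0387, 18 arrays). With each of the 28 arrays left out in turn, chosen after seeing the data, it passed in 18 of the refits. That count includes refits without an array on which Rdh16 had no value, which left its change at -2.26. It therefore overstates how stable the call was. Without P7/P3 replicate 2 its change was -1.50 (adjusted p = 0.399). The mean Ts1Cje effect had an unadjusted p under 0.05 for 1 gene that was higher and 2 that were lower, and the change from P0 to P10 for 1 higher and 4 lower. The medians over the 82 genes were 0.03 and 0.06, and those over all features -0.00 and 0.02. The other receptors, Rarg, Rxrb, Rxrg and Ppard, lay between -0.14 and 0.51 from P0 to P10. Of 12 coactivators, corepressors and related cofactors 11 had an estimate above 0 in this change (median 0.54), as had 16 of 30 response genes (median 0.07) and 3 of 5 carriers and breakdown enzymes (median 0.25). In the lists of retinol oxidation and retinol uptake 5 of 18 and 5 of 13 were above 0 (medians -0.64 and -0.71). None of the 12 cofactors had an unadjusted p under 0.05 in this change (limma). The share of all features above 0 was not counted, and the genes of a list share the same arrays, so these counts are descriptions only.

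With age, the smallest p among the lower genes were those of Nr2f2, an orphan nuclear receptor induced by retinoic acid (-1.38 ± 0.41, adjusted p = 0.431), and Gap43, a protein of growing axons (-0.84 ± 0.28, adjusted p = 0.459, limma). Next came the short-chain dehydrogenases Rdh7 (-2.61 ± 0.91, adjusted p = 0.491) and Dhrs4 (-1.10 ± 0.43, adjusted p = 0.554). Among the higher genes they were those of Gbx2, a homeobox gene of the anterior hindbrain (1.18 ± 0.57, adjusted p = 0.619), and the coactivator Ncoa1 (1.10 ± 0.61, adjusted p = 0.667). Tbl1xr1, a subunit of the corepressor complex, followed at 0.59 ± 0.33 (adjusted p = 0.676), and Cyp1b1, a cytochrome that can oxidise retinol, at 1.29 ± 0.73 (adjusted p = 0.681).

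In Ts1Cje the lower genes with the smallest p were Dhrs9, a retinol dehydrogenase (-1.04 ± 0.31), and Bco2, which cleaves carotenoids (-0.66 ± 0.29). They were followed by the receptor Rxrg (-0.22 ± 0.11) and the transcription factor Tfap2a (-0.28 ± 0.14). The higher genes were the zinc finger gene Tshz1 (0.28 ± 0.13), Hoxa5 (0.20 ± 0.12), the coactivator Ncoa3 (0.17 ± 0.11) and Rarres2, the precursor of chemerin (0.19 ± 0.13). All 8 had an adjusted p of 0.993 (limma). Dhrs9 rested on 17 arrays and Bco2 on 19, and the others on 21 to 28.

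The genes whose ratios were most like those of Cyp26b1 over the arrays were then found among 11486 genes that shared at least 24 arrays with it. By Pearson's r they were Fscn1 (0.849), which bundles actin, Vim (0.841), the intermediate filament of radial glia and other immature cells, and Esrrg (0.829), an orphan nuclear receptor. Sh3kbp1 (0.817), Nnat (0.817), B3gat1 (0.808), Vps35l (0.807) and Nolc1 (0.807) followed, each over 24 to 26 arrays. These values are descriptions, and the points share the age gaps of the cross-stage arrays. Over the 14 to 16 same-stage arrays alone, r lay between -0.22 (Nnat) and 0.557 (B3gat1). From P3 to P7 Cyp26b1 had a mean of -2.13 ± 0.65 (SD, 4 arrays), against -1.34 ± 0.17 for Nnat, an imprinted gene, -1.17 ± 0.25 for Fscn1 and -1.15 ± 0.24 for Vim. From P0 to P10 Nnat changed by -2.28 and Nolc1 by 0.04. Among the retinoid genes themselves r with Cyp26b1 was 0.304 for Rxra, 0.267 for Cyp26a1, -0.283 for Rara and -0.506 for Rarb, over 24 to 26 arrays. Rarb ranked 11097 of 11486.

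**Figure D5:**
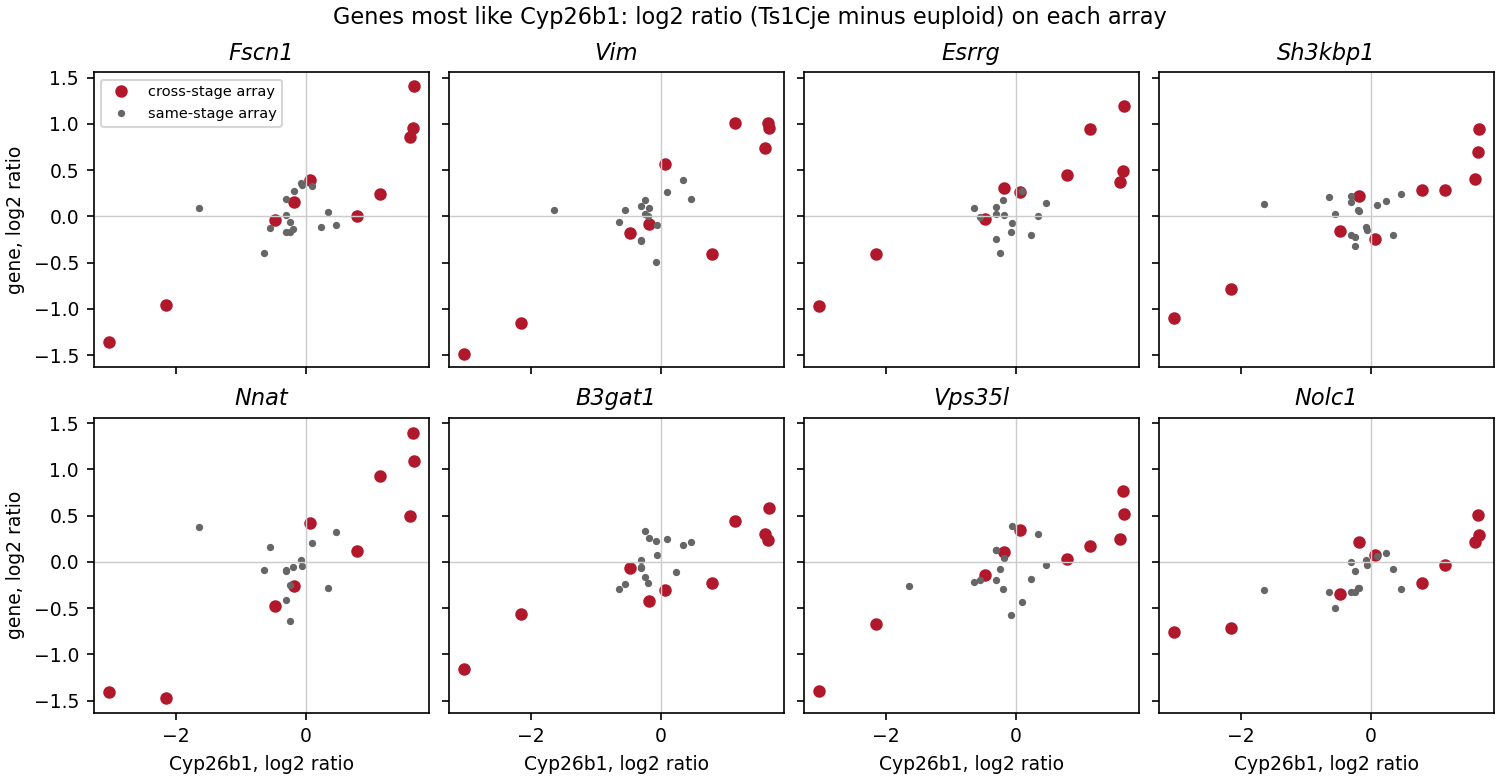
Log2 ratio of Ts1Cje minus euploid of the 8 genes most like Cyp26b1 against that of Cyp26b1, a point per array. Cross-stage arrays are shown as large red points and same-stage arrays as small grey points. The range of each panel is set by the cross-stage arrays, and over the same-stage arrays alone r lies between -0.22 and 0.557.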

How the data were processed

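The authors deposited Cy5/Cy3 signal ratios in log2. They had subtracted the background from the median intensities, applied a local LOWESS per array and dropped control, irregular and near-background spots. Probes without a value were treated as missing, and each array held 11185 to 23732 values of 25344 probes. The number of arrays limits the precision. Ratios were signed to Ts1Cje minus euploid, or to older minus younger, and probes of the same gene were averaged. The ANOVA of the methods (7 parameters: euploid development and a Ts1Cje effect per stage, no dye term) was fitted by limma 3.58.1 in R 4.3.3 to features on at least 14 arrays with 5 residual degrees of freedom, with moderated variances. P-values were Benjamini-Hochberg adjusted over all 22225 features at a threshold of 0.05. The fit was tested on simulated data with changes of 1.5-fold, 2-fold, 4-fold and 8-fold. For the change from P0 to P10 it called 0%, 0%, 16% and 42% of them. For the mean Ts1Cje effect it called 50%, 84%, 100% and 100%. A change with age that did not pass may therefore still be large. More features were changed in the simulation than passed in the data, which eases the adjustment, so these shares may be too high. The changed features were drawn at random from all those tested, whose median SE for the mean Ts1Cje effect was 0.166. That SE ran from 0.06 for Rara to 0.47 for Aldh1a3, so the shares do not hold for each member. The 9 genes, the gene lists and the alternatives were chosen with earlier results of these data known. The named pathway genes are the 4 with the smallest p per direction and comparison. Promoter sequences come from RefSeq (GRCm38.p6). The mice are individual animals. The study's record of their litters was not used here, so mice of 1 litter were treated as independent and p-values measure the spread between these samples. Alternatives were a dye term, unmoderated ANOVA, array weights, other scalings and filters, single probes and leaving out arrays. Scripts used Python 3.11.15, pandas 2.3.3, numpy 2.4.6, matplotlib 3.10.9 and the R package data.table (version 1.17.8).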

Additional observations from a re-analysis of the deposited data

Results flagged for a closer look

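Of the 20 sets of 4 same-stage arrays in which a member had all values, 2 held an array whose gap to the nearest other was over 0.829 of the whole range, and about 1 in 20 sets would by chance. Cyp26b1 was -1.64 on P10/P10 replicate 1, while the other 3 arrays lay between -0.30 and -0.20. Rara was 0.26 on P10/P10 replicate 4, while the other 3 lay between 0.01 and 0.04. P10/P10 replicate 4 held 16693 values, among the fewest of all arrays. P10/P10 replicate 1 held 20410.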

How the results depend on the processing

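No member was called in any of the 3 comparisons under any alternative run, leaving out each array in turn included (0 in each). For the change with age this covers the 7 members other than Cyp26b1, whose change was not tested. None of the pathway genes named by the rule passed in these refits either. The alternatives that left out the 3 arrays with the fewest values (the sparsest) and that fitted each probe alone were chosen after seeing the data. Cyp26b1's change from P0 to P10, not tested, was -4.69 with the arrays brought to one scale and -3.71 with the euploid mouse of the conflicting array taken as P3, and lay between -4.41 and -3.83 with single arrays left out. Aldh1a2's Ts1Cje effect changed sign, to -0.033 with array weights and -0.019 once the 3 sparsest arrays were left out. The cause was not tested. Requiring values on all 28 arrays left Rxra alone among the members. The cross-stage arrays alone gave no fit for Aldh1a2 and Crabp1. Crabp1's change from P0 to P10 ran from -2.84 without P3/P0 replicate 1 to 1.34 without P3/P7 replicate 1. No paired analysis was possible because the replicate numbers, the only ones used here, follow accession order and pair no samples across groups. This limit concerns the replicate numbers alone. The paper identifies each sample by litter and pup, but that record was not used, so pairing by litter was not tested. Each array does compare a Ts1Cje with a euploid mouse. Missing spots and 12 cross-stage arrays limit the changes with age.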
